A study of Mus musculus with 4 samples.

Results

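The 7 genes described here, App, Aplp2, Mif, Ddt, Copa, Cd74 and Cd44, were taken by gene symbol from the 32285 genes of 4 single-cell RNA libraries of mouse bone. They encode the ligands and receptors of 2 signalling routes that meet at one receptor. MIF, macrophage migration inhibitory factor, is a secreted cytokine that leukocytes carry in stores and that is known to counter glucocorticoid action. It binds CD74, and the complex signals through CD44, a hyaluronan receptor. CD74 is better known as the invariant chain that guides MHC class II molecules to the endosome of antigen-presenting cells. DDT, D-dopachrome tautomerase, is the homolog of MIF and also binds CD74. APP is the amyloid precursor protein, a transmembrane protein cut by secretases, and APLP2 is its close relative. COPA is the alpha subunit of the COPI coat, which carries proteins from the Golgi back to the endoplasmic reticulum. Ligand and receptor catalogues list APP and COPA as partners of CD74.

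The cells came from 20-week-old C57BL/6J male mice, and the labels name no engineered allele. The glucocorticoid (GC) group received prednisolone at 6.25 mg/kg/d from a slow-release pellet and the control group a placebo, with sampling at week 2. The labels give this dosing for all libraries, whereas the study's methods describe daily injection for its fracture model, so the route in the callus libraries is uncertain. Each treatment has 1 library of fracture callus, the repair tissue that bridges a broken bone, and 1 of crushed and digested trabecular bone. With 1 library per group, GC and control could not be tested against each other, and every interval below is an exact 95% interval that covers counting error only. The number of mice behind each library is not given in the sources used here.

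After filtering, 6706 control and 6890 GC callus cells and 3806 control and 4602 GC trabecular cells remained, with medians of 3285 to 6328 transcripts (unique molecular identifiers, UMIs) per cell. Cells were clustered within each tissue and named from marker genes, which gave 18 classes shown for callus and 12 for trabecular bone. These names are rebuilt and may differ from those of the study. In callus, 16 classes held at least 15 cells in each library, and 8 did so in trabecular bone. The libraries stood apart in several places. Callus clusters holding markers of several lineages came almost only from the GC library. In all, 1555 GC cells (22.6%) carried no name against 201 control cells. Callus cluster 2 held 1122 of these GC cells. At 2-fold it had all 10 chondrocyte and all 6 hypertrophic chondrocyte markers, beside markers of other classes. The chondrocyte class, with 1740 control and 909 GC cells, leaves it out. Mature neutrophils of the 2 callus libraries fell mostly into different clusters (cluster 0 held 1365 control and 68 GC cells, cluster 1 held 192 and 1144). The same held in trabecular bone, where mature neutrophil clusters 0, 1 and 7 held 875, 823 and 459 GC cells against 2, 2 and 0 control cells, and clusters 2, 3 and 5 held 616, 587 and 490 control cells against 39, 63 and 13 GC cells. The trabecular B cells numbered 308 in control and 15 in GC. At most 0.21% of the barcodes of any library were shared with another. Free RNA also differed: Col2a1, the collagen of cartilage, stood at 2073 CPM (UMIs of a gene scaled to the summed UMIs of the class) in control and 655 CPM in GC callus T cells, which do not make it. Hbb-bs, a beta globin, went the other way in several callus classes, from 529 to 2384 CPM in mature neutrophils, 119 to 529 CPM in B cells and 334 to 441 CPM in monocytes. The share of free RNA in callus B and T cells was put from collagens at 8.35% in control and 2.92% in GC. These shares are unlike measures. The control share was set against empty droplets, where collagens held 5.82% of the UMIs. The GC matrix lists no empty droplets, so its share was set against the sum of its kept cells, where collagens held 7.40%.

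Levels below are CPM over the summed cells of a class. A gene was compared between libraries where it had at least 50 UMIs over both. It is called higher or lower when GC and control differ by more than 1.5-fold with 5 CPM added to each, a rule of size and not a test. On that rule 5.72% of all gene and class pairs in callus were higher and 7.78% lower, and 5.26% were higher and 14.1% lower in trabecular bone. Of the 7 genes, 89 of 112 pairs could be measured in callus and 46 of 56 in trabecular bone. The callus pairs gave 0 higher and 12 lower, the trabecular pairs 5 higher and 8 lower. Cd74 held 6 of the 12 and Mif 4. A ratio interval can lie off 1 without such a call, and more readily where a gene has many UMIs. Over all pairs 17.3% of intervals lay above 1 and 19.3% below it in callus, and 16.9% above and 20.3% below in trabecular bone.

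**Figure D1:**
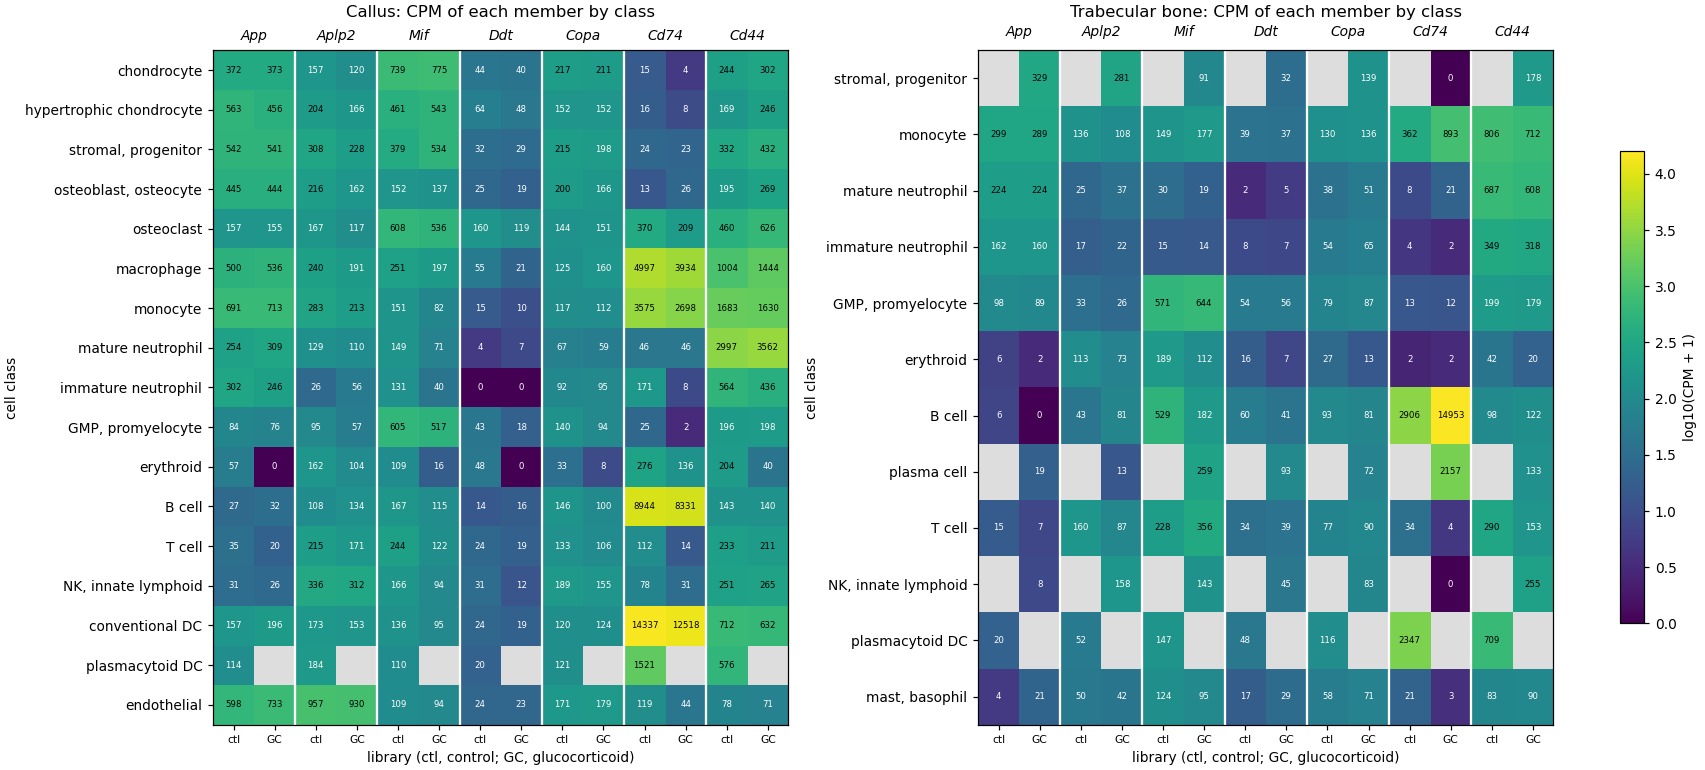
Level of each gene by cell class. Rows are cell classes, columns are the 7 genes with the control (ctl) and GC library side by side, and colour is log10(CPM + 1), with CPM printed in each cell and grey where a library held fewer than 15 cells of the class. Among callus classes of over 100 cells Cd74 runs from 4 CPM in GC chondrocytes to 14337 CPM in control conventional dendritic cells, and Cd44 is highest in callus mature neutrophils.

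On GRCm38 (mm10; GENCODE M21), Mif and Ddt lie on chromosome 10 on the same strand, 85938 bases apart (Mif at chr10:75859353-75860240, Ddt at chr10:75771230-75773414, both on the minus strand). App is at chr16:84949685-85173766, Aplp2 at chr9:31149557-31211815, Copa at chr1:172082529-172122330 and Cd44 at chr2:102811141-102901665. All 7 members are annotated as protein-coding genes. The counts of 3 of them may have limits of sequence. Of all 50-base words in Mif transcripts, 50.9% also occur in 7 other genes. Those that share most, C230062I16Rik, Gm10169 and Gm16379, are not among the genes counted, so no read was counted to them. Any effect of such copies on the level of Mif was not tested. Ddt shares 25.3% of its words with Gm20441, which overlaps it on the same strand and is not among the genes counted. Copa shares 8.31% with Gm37756, which lies inside it, and Ncstn, which overlaps its start, both on the opposite strand. Words were matched on either strand, so a shared word need not be a read that could be counted to either gene.

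The promoters of Mif and Ddt are printed because the paralogs, though neighbours, were highest in different classes. Each is the 250 bases before the gene's start in RefSeq (build GRCm38.p6), read 5′ to 3′ on the minus strand, with motif matches in capitals. The Mif window is chr10:75860278-75860527 and the Ddt window chr10:75773375-75773624.
Mif promoter: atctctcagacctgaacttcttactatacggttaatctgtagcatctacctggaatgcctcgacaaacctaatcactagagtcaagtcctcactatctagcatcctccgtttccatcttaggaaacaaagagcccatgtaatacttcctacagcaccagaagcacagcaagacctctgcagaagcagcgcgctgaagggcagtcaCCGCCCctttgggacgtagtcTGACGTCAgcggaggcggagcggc
Ddt promoter: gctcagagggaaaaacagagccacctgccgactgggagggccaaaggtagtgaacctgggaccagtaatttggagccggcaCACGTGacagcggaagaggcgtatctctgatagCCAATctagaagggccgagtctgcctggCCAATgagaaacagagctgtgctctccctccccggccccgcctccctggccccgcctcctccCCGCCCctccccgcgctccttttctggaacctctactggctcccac
Capitals mark matches on either strand to 4 motifs: the cAMP response element TGACGTCA, the GC box GGGCGG, the E-box CACGTG and the CCAAT box. The Mif window holds the cAMP response element, 16 bases from the start, and a GC box. The Ddt window holds an E-box, 2 CCAAT boxes and a GC box. Over 32851 promoter windows of that length, 1.55% hold the cAMP response element, 6.02% the E-box, 32.7% the GC box and 33.8% the CCAAT box. The palindromic glucocorticoid response element had no match in the windows of the 6 genes searched, Cd74 not being among them, and matches in 3 of the 32851. A match is a string of letters and shows no binding.

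App was highest in callus monocytes and endothelial cells and lowest in lymphocytes. With both libraries summed, it stood at 701 CPM (interval 678 to 725) in monocytes and 667 CPM (613 to 724) in endothelial cells, a pair whose ratio interval holds 1. Stromal and progenitor cells (542 CPM), macrophages (516) and hypertrophic chondrocytes (514) came next and did not separate from each other. Callus T cells were lowest at 26.0 CPM, and B cells (28.9) and NK cells (28.3) did not differ from them beyond counting error. Chondrocytes, at 372 CPM, held 47.2% of all App UMIs of the callus because they are numerous and rich in RNA. In trabecular bone the order began with stromal cells at 361 CPM and monocytes at 293 CPM, and erythroid cells were last at 3.82 CPM. With each cell thinned to 1000 UMIs, 45.6% of callus monocytes held an App UMI against 2.41% of callus T cells (81.1% and 6.63% before thinning, at median depths of 3810 to 4241 and 2721 to 3053 UMIs in the 2 libraries). Cells under 1000 UMIs were left out of this and every other thinned share.

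App differed little between GC and control. Callus monocytes had 691 CPM in control and 713 CPM in GC, a ratio of 1.03 (0.965 to 1.10). Chondrocytes had 372 and 373 CPM and stromal cells 542 and 541 CPM. Intervals below 1 were found for hypertrophic chondrocytes, from 563 to 456 CPM (ratio 0.811, 0.782 to 0.840), and for T cells. Intervals above 1 were found for mature neutrophils, from 254 to 309 CPM (1.22, 1.08 to 1.37), and endothelial cells, from 598 to 733 CPM (1.23, 1.04 to 1.45). The call in T cells, 34.7 against 19.5 CPM, rests on 32 and 24 UMIs, and 13.9% of all genes tested in T cells were lower. That call could not be recomputed with the estimated free RNA taken off. In the trabecular classes measured, all 4 App intervals held 1, monocytes at 299 and 289 CPM among them.

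Aplp2 was highest in endothelial cells. It reached 943 CPM (879 to 1011) in callus endothelial cells, 2.91 times (2.53 to 3.35) the level of the next class, NK and innate lymphoid cells at 324 CPM. Stromal cells (274 CPM) and monocytes (250 CPM) followed. Chondrocytes again held the largest part of the callus UMIs, 42.1%. Unlike App, it was present in T cells (190 CPM), and immature neutrophils were lowest at 44.5 CPM. In trabecular bone stromal cells led at 299 CPM and plasma cells were last at 13.8 CPM.

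Aplp2 was lower in GC in 13 of the 14 callus classes measured, by amounts mostly short of the 1.5-fold rule. The interval lay below 1 in 8 classes and above 1 in none of the 14, where over all pairs 19.3% lay below and 17.3% above. Chondrocytes went from 157 to 119.9 CPM (ratio 0.762, 0.729 to 0.798), osteoclasts from 167 to 117 CPM (0.699, 0.592 to 0.824), stromal cells from 308 to 228 CPM (0.738, 0.666 to 0.817) and monocytes from 283 to 213 CPM (0.753, 0.670 to 0.845). Endothelial cells, where the gene is highest, had 957 and 930 CPM, a ratio of 0.972 whose interval of 0.845 to 1.12 holds 1. B cells were the exception with a ratio of 1.23 (0.935 to 1.62). Granulocyte-monocyte progenitors were called lower, from 95.3 to 57.4 CPM on 49 and 25 UMIs, where 14.9% of all genes were lower, and without doublet removal the log2 ratio there was 0.18. In trabecular monocytes Aplp2 went the same way as in callus, from 136 to 108 CPM (0.793, 0.691 to 0.911), and T cells had 160.3 and 87.3 CPM (0.545, 0.389 to 0.771), called lower where 12% of genes were. In trabecular mature neutrophils it went from 24.5 to 37.2 CPM (1.52, 1.28 to 1.80), short of a call with 5 CPM added, where the class median log2 ratio was 0.25. Within the clusters that hold cells of both libraries the ratio was 0.866 (0.309 to 1.96) in cluster 2 and 0.835 (0.323 to 1.82) in cluster 3. The part of the cluster mix was not tested. The call in trabecular B cells, from 42.8 to 81.0 CPM, rests on 4 UMIs in GC, and its ratio interval of 0.503 to 5.04 holds 1.

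**Figure D2:**
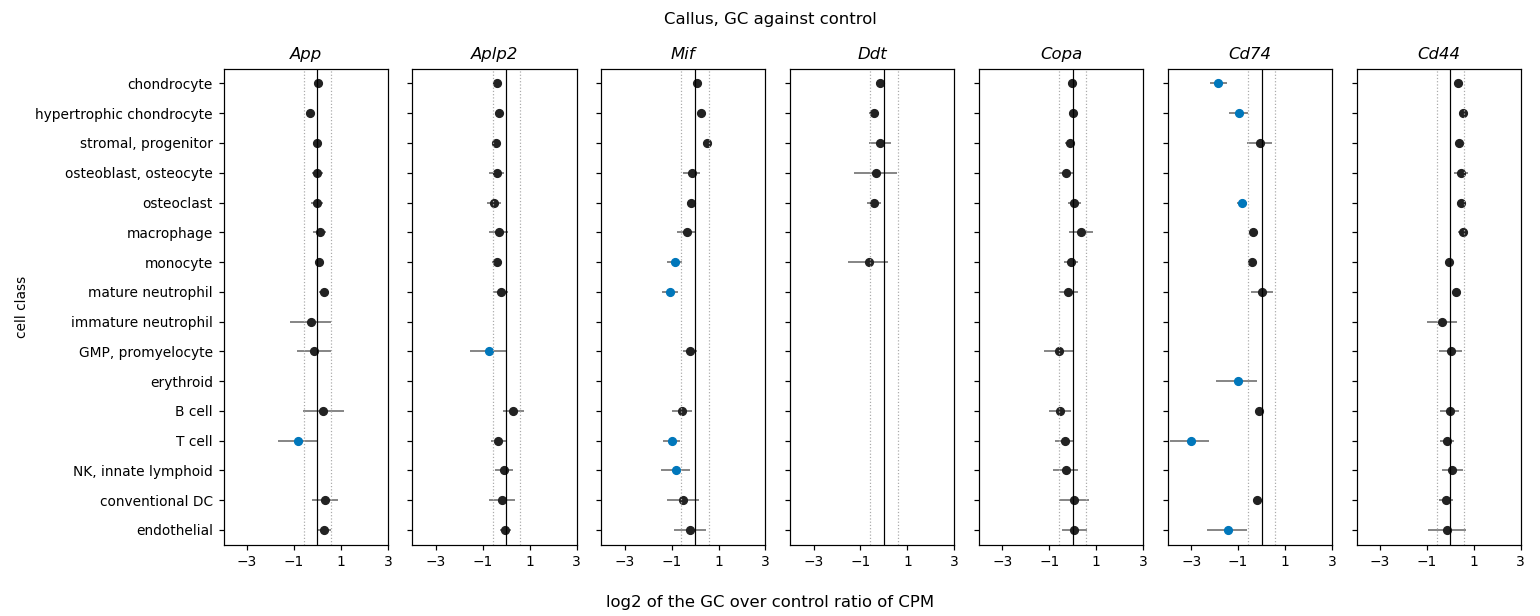
GC against control in callus. Each panel is a gene, each row a class; the x axis is the log2 of the GC over control ratio of CPM, points are ratios, bars are exact 95% intervals for counting error, dotted lines mark 1.5-fold, and blue points are pairs called lower. Aplp2 points sit left of 0 in 13 of 14 classes, and Mif points lie left of 0 in leukocytes and right of it in cartilage and stromal cells.

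Mif was highest in cartilage in callus and in myeloid progenitors in trabecular bone. Callus chondrocytes held 751 CPM (744 to 757), and with 19.5% of the cells they supplied 65.1% of all callus Mif UMIs. They are rich in RNA, with 46858165 of the 79746312 UMIs of all genes in control and 21400911 of 55414232 in GC. Osteoclasts (574 CPM) and granulocyte-monocyte progenitors (564 CPM) came next and did not separate from each other, followed by hypertrophic chondrocytes (499 CPM) and stromal cells (445 CPM). Monocytes (118 CPM), mature neutrophils (116 CPM) and conventional dendritic cells (115 CPM) lay together near the bottom. In trabecular bone granulocyte-monocyte progenitors held 611 CPM (598 to 624) and 64.2% of all Mif UMIs with 7.11% of the cells. Of the UMIs of all genes they held 6453128 of 34193503 in control and 7769303 of 37538651 in GC. In Mif level B cells followed at 520 CPM and T cells at 331 CPM. Mature neutrophils (24.5 CPM) and immature neutrophils (14.2 CPM) were the lowest, so within the granulocyte line the summed level was 43.0 times higher in progenitors than in immature neutrophils.

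In callus, Mif was higher in GC in chondrocytes, hypertrophic chondrocytes and stromal cells, and the ratio lay below 1 in the other 11 classes measured. Stromal cells went from 379 to 534 CPM (ratio 1.41, 1.304 to 1.52), hypertrophic chondrocytes from 461 to 543 CPM (1.18, 1.14 to 1.22) and chondrocytes from 739 to 775 CPM (1.05, 1.03 to 1.07). The class has 6 clusters, and in the 4 with the most cells the chondrocyte ratio ran from 1.15 to 1.32. The remaining clusters are not given here. With each library clustered alone, however, the chondrocyte log2 ratio was -0.23. Of 17 settings, 12 kept the sign of that log2 ratio, 0.07 in the main run, and the highest value was 0.11. The stromal value was not shared by its clusters, which gave 0.902 and 0.565 as well as 1.29 and 1.18, and it became a log2 ratio of -0.87 with each library clustered alone. Osteoblasts had 151.8 and 137.5 CPM (0.906, 0.722 to 1.13) and osteoclasts 608 and 536 CPM (0.881, 0.813 to 0.955). Several leukocyte classes lay further below 1. Monocytes had 151 CPM in control and 82.3 CPM in GC (0.545, 0.456 to 0.650), mature neutrophils 149 and 70.8 CPM (0.474, 0.384 to 0.583), T cells 244 and 122 CPM (0.499, 0.403 to 0.617) and NK cells 166 and 93.9 CPM (0.567, 0.374 to 0.848). These 4 were called lower, where 8.48%, 12.4%, 13.9% and 11.2% of all genes were. B cells (167 and 115 CPM) and macrophages (251 and 197 CPM) lay on the same side without reaching the rule.

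Mif is also a gene of the free RNA, at 533 CPM in the empty droplets of the control callus. In monocytes Col2a1 went from 1675 to 507 CPM alongside it, and the 10 chondrocyte markers summed to 3143 CPM in control and 1059 CPM in GC. With the estimated free RNA taken off, the log2 ratio of Mif was -0.73 in monocytes, -0.97 in mature neutrophils, -0.97 in T cells and -0.69 in NK cells. The profile taken off was that of the empty droplets in control but that of all kept cells in GC. Within monocyte cluster 3, which holds 498 control and 473 GC cells, Mif went from 158 to 85.8 CPM (0.543, 0.447 to 0.657). Within the mature neutrophil clusters the difference was small: 169.9 and 153 CPM in cluster 0 (0.903, 0.475 to 1.57) and 78.4 and 74.9 CPM in cluster 1 (0.956, 0.575 to 1.68). The part of the cluster mix in the neutrophil call was not tested. The share of callus monocytes with a Mif UMI at 1000 UMIs per cell was 13.7% in control and 7.49% (5.51 to 9.89) in GC (41.3% and 23.6% before thinning).

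In trabecular bone Mif lay on the other side of 1 from callus in monocytes and T cells and on the same side in mature neutrophils. Monocytes went from 149 to 177 CPM (1.19, 1.055 to 1.34), with intervals that hold 1 in each of 3 clusters and a log2 ratio of -0.02 without doublet removal. T cells went from 228 to 356 CPM (1.56, 1.22 to 2.02), called higher where 12.4% of genes were. The T cell log2 ratio was 0.26 when cells were thinned to 1000 UMIs, and its control side is 49 cells. Mature neutrophils went from 30.5 to 19.3 CPM (0.634, 0.524 to 0.766), short of a call with 5 CPM added. Granulocyte-monocyte progenitors had 571 and 644 CPM (1.13, 1.08 to 1.18). B cells went from 529 to 182 CPM (0.345, 0.157 to 0.657), but all 15 GC cells lay in cluster 19, where the control cells had 184 CPM against 182 CPM (0.993, 0.433 to 2.01). In these B cells 12.2% of genes were higher and 50.5% lower.

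Trabecular erythroid cells gave 5 of the 8 lower calls of that tissue, in a class where 53.1% of all genes were lower and the median log2 ratio was -0.60. Mif went from 189 to 112 CPM, Aplp2 from 113 to 73.0 CPM, Ddt from 16.1 to 6.70 CPM, Copa from 26.9 to 13.4 CPM and Cd44 from 42.4 to 19.6 CPM. Set against the class median, the Aplp2 log2 ratio was 0.00 and the Mif ratio -0.13, so both lay near the middle of the class. Hbb-bs, a beta globin, took 197767 CPM in control and 313675 CPM in GC. The libraries differed in make-up here too: the largest cluster was 15 in control (103 of 328 cells) and 8 in GC (348 of 559 cells). Within erythroid cluster 17 Mif went the other way, from 47.0 to 122 CPM (2.60, 1.84 to 3.71). Some signs turned under other settings: the log2 ratio of Aplp2 was 0.10 and of Mif 0.032 with at least 500 genes per cell, and of Cd44 0.033 without doublet removal.

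Ddt, measured in only 6 callus classes, was highest per UMI in osteoclasts. It reached 140.3 CPM (129 to 152) there, 2.48 times (2.25 to 2.73) hypertrophic chondrocytes at 56.6 CPM, with chondrocytes at 42.8 CPM. Osteoclasts held 10.4% of the callus Ddt UMIs, chondrocytes 50.9% and hypertrophic chondrocytes 24.4%. Mature neutrophils had 5.57 CPM, and the 36 immature neutrophils gave no UMI (upper bound 18.2 CPM). In trabecular bone the 24 plasma cells had 73.0 CPM, B cells 59.4 CPM and granulocyte-monocyte progenitors 54.8 CPM, none of which separated from its neighbour. GC over control lay below 1 in all 6 callus classes measured, with intervals below 1 in chondrocytes (44.2 to 39.6 CPM), hypertrophic chondrocytes (64.0 to 47.8 CPM) and osteoclasts (159.9 to 119 CPM, ratio 0.746, 0.631 to 0.880). None reached the rule. In osteoclasts Mif, its paralog, had 608 and 536 CPM (0.881, 0.813 to 0.955). In trabecular monocytes Ddt had 38.7 and 37.1 CPM, and in mature neutrophils 2.17 and 4.53 CPM (2.09, 1.20 to 3.78). The neutrophil values rest on 19 and 45 UMIs, in a class whose median log2 ratio was 0.25.

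Copa had the flattest order of the set. From chondrocytes at 215 CPM to mature neutrophils at 63.7 CPM, only erythroid cells lay lower, at 23.8 CPM, and in 15 of the 17 neighbouring pairs of the callus order the ratio interval held 1. Trabecular levels ran from 133 CPM in monocytes to 19.5 CPM in erythroid cells. In callus the GC over control interval held 1 in 13 of 14 classes, with chondrocytes at 217 and 211 CPM (0.970, 0.936 to 1.005) and macrophages at 125 and 160.0 CPM (1.28, 0.927 to 1.76). B cells were the exception, at 146 and 99.9 CPM (0.685, 0.511 to 0.909). In trabecular bone mature neutrophils went from 38.0 to 50.7 CPM (1.335, 1.16 to 1.54) and immature neutrophils from 54.0 to 64.6 CPM (1.20, 1.06 to 1.35), neither called, beside the lower erythroid value above. In mature neutrophils the class median log2 ratio was 0.25, and median of ratios scaling took that of Copa from 0.37 to 0.06.

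Cd74 was high in antigen-presenting cells and low in the rest. In callus it stood at 13385 CPM in conventional dendritic cells, 8728 CPM in B cells, 4520 CPM in macrophages, 3159 CPM in monocytes and 1662 CPM in plasmacytoid dendritic cells, and each step of that order was larger than counting error. Osteoclasts, which share a myeloid origin with monocytes, held 293 CPM (277 to 309). T cells (55.8 CPM), NK cells (54.2 CPM) and mature neutrophils (45.8 CPM) did not separate from one another in that order, and chondrocytes had 11.8 CPM, below the 271 CPM of the control empty droplets. By share of cells at 1000 UMIs, 98.5% of conventional dendritic cells, 97.5% of B cells, 57.0% of macrophages and 46.1% of monocytes held a Cd74 UMI, against 2.26% of T cells and 1.19% of chondrocytes (99.3%, 98.2%, 64.8%, 59.5%, 4.61% and 18.4% before thinning). The trabecular order began with B cells at 3216 CPM, then plasmacytoid dendritic cells (2121 CPM), plasma cells (2084 CPM) and monocytes (643 CPM). In the 49 trabecular stromal cells no Cd74 UMI was counted (upper bound 9.93 CPM).

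In callus antigen-presenting cells Cd74 was moderately lower in GC. Macrophages went from 4997 to 3934 CPM (ratio 0.787, 0.744 to 0.832), monocytes from 3575 to 2698 CPM (0.755, 0.731 to 0.780), conventional dendritic cells from 14337 to 12518 CPM (0.873, 0.841 to 0.907) and B cells from 8944 to 8331 CPM (0.932, 0.902 to 0.962). None of these reached 1.5-fold. With control barcodes of at most 7534 UMIs left out, the macrophage log2 ratio became 0.03. That cutoff removed no GC callus cells, so the libraries were then unlike in depth. With median of ratios scaling the B cell log2 ratio became 0.07. In monocytes H2-Ab1 was lower too, at 1092 and 925 CPM (0.847, 0.8004 to 0.897), while the intervals of H2-Aa (1412 and 1454 CPM; 1.03, 0.982 to 1.08) and H2-Eb1 (944 and 925 CPM; 0.980, 0.924 to 1.04) hold 1. Ctss, the protease that trims CD74, had 1350 and 1315 CPM. The monocyte clusters were not alike either. Cluster 3 went from 3814 to 2465 CPM (0.646, 0.623 to 0.670) and cluster 18 from 735 to 887 CPM (1.21, 0.999 to 1.46). In macrophages H2-Eb1 went from 2616 to 1785 CPM (0.682, 0.629 to 0.740) and Ctss from 1689 to 2342 CPM (1.39, 1.28 to 1.51).

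The 6 callus calls of Cd74 lie in classes that hold little of it. Osteoclasts had the most, at 370.3 CPM in control and 209 CPM in GC (0.565, 0.502 to 0.636), where 5.18% of all genes were lower. H2-Eb1 went with it, from 119 to 58.4 CPM, and the 3 cells richest in Cd74 held 297 of 820 UMIs in control and 123 of 430 in GC. In osteoclasts 7 of 9 B cell markers had UMIs in each library, with sums of 70.9 CPM in control and 33.6 CPM in GC. T cells had 112 CPM (103 UMIs) and 13.8 CPM (17 UMIs), and 61 of the 103 control UMIs lay in 3 cells. Endothelial cells had 119 CPM (50 UMIs, 48 of them in 3 cells) and 43.5 CPM (19 UMIs), where 8.69% of genes were lower. Erythroid cells had 276 CPM (58 UMIs, 54 in 3 cells) and 136 CPM (17 UMIs), where 19.6% were. Of the 10 macrophage markers, 6 had UMIs in control T cells and 2 in GC T cells, summing to 61.9 and 2.44 CPM, and 8 of 9 B cell markers against 5 summed to 191 and 74.8 CPM. Ctss, in T cells, had 65.1 and 30.9 CPM. With the estimated free RNA taken off, the log2 ratio of Cd74 went from -0.81 to -0.87 in osteoclasts and from -2.63 to -3.76 in T cells. It went from -1.35 to -1.52 in endothelial cells and from -0.99 to -1.07 in erythroid cells. The profile taken off was again that of empty droplets in control but of all kept cells in GC. The part of stray cells in these calls was not tested.

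Chondrocytes had 15.2 and 4.25 CPM of Cd74 (0.280, 0.222 to 0.348), where 3.4% of genes were lower, and hypertrophic chondrocytes 16.2 and 8.24 CPM (0.509, 0.395 to 0.651), where 2.26% were. All of these lie under the level of the empty droplets. Neither the chondrocyte nor the hypertrophic chondrocyte call could be recomputed with the estimated free RNA taken off. The part of free RNA in them was therefore not tested. The chondrocyte direction turned under 6 settings, among them a minimum of 500 genes per cell (log2 ratio 0.86) and the counting of the GC-rich cluster 2 as chondrocytes (0.62, chosen after seeing the data).

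**Figure D3:**
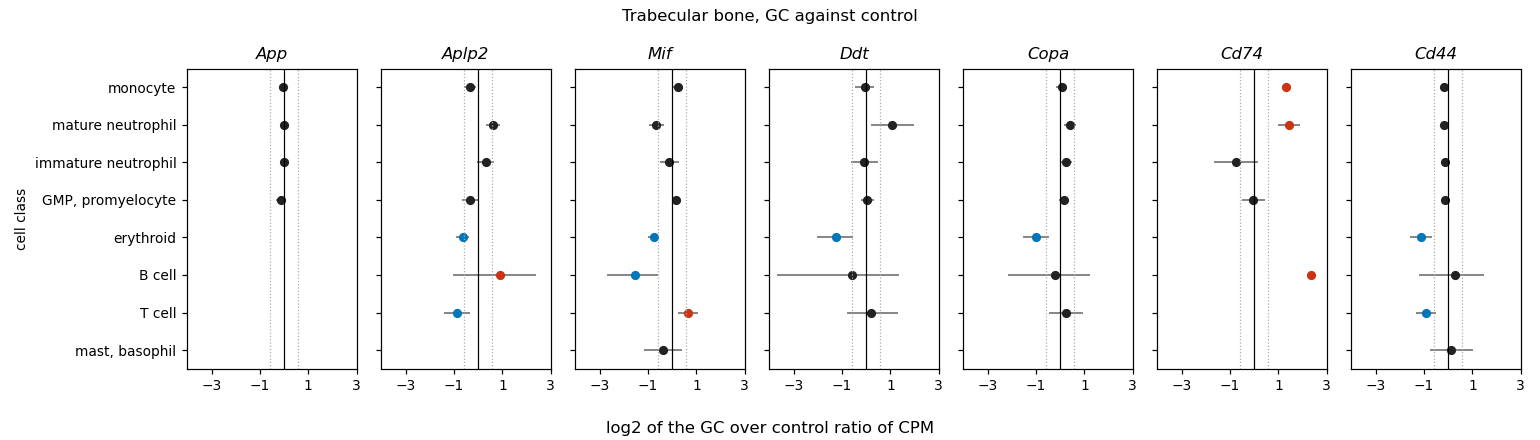
GC against control in trabecular bone. Each panel is a gene, each row a class; the x axis is the log2 of the GC over control ratio of CPM, with points, bars and dotted lines for ratios, exact 95% intervals for counting error and 1.5-fold, red points for pairs called higher and blue for pairs called lower. Cd74 is higher in B cells, monocytes and mature neutrophils, and all 5 genes measured in erythroid cells are called lower.

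In trabecular monocytes Cd74 was higher in GC, at 893 CPM against 362 CPM in control (ratio 2.47, 2.31 to 2.64), in a class where 2.01% of all genes were higher. Here the class II genes went with it: H2-Aa had 110.04 and 350.0 CPM (3.18, 2.83 to 3.58) and H2-Ab1 88.1 and 294 CPM (3.34, 2.93 to 3.82). The higher level in GC lay in the cells richest in Cd74 and not in a clearly larger share of positive cells. At 1000 UMIs per cell, 9.47% (6.09 to 13.9) of control and 9.92% (6.59 to 14.2) of GC monocytes held a Cd74 UMI (36.9% and 25.2% before thinning). Before thinning, 90 control and 66 GC cells held a Cd74 UMI, with a mean of 13.2 in control and 49.9 in GC. With a limit of 10 UMIs chosen after seeing the data, 19 of 244 control and 23 of 262 GC cells were above or at it. They held 1037 and 3223 UMIs, which were 87.4% and 97.8% of the class's Cd74 UMIs. With the 3 richest cells of each library left out, the levels were 215 and 630.5 CPM (2.93, 2.69 to 3.19). Within monocyte cluster 10 the values were 429 and 2038 CPM (4.75, 4.39 to 5.15). Of the 5 monocyte clusters it is the largest, with 172 of 244 control and 142 of 262 GC cells. The other clusters are not given here, so its ratio does not stand for the class. Of the 9 conventional dendritic cell markers, 6 had UMIs in each library, summing to 53.0 CPM in control and 62.4 CPM in GC. These were Flt3, Clec9a, Cd209a, Zbtb46, Clec10a and Batf3, with Xcr1, Ccr7 and Fscn1 at 0. The B cell markers summed to 326 and 323 CPM, with Ms4a1, Pax5 and Vpreb3 among those at 0 in GC. Both sums cover all monocytes of a library and not the Cd74-rich cells alone. The part of other cell types among the Cd74-rich cells was not tested.

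**Figure D4:**
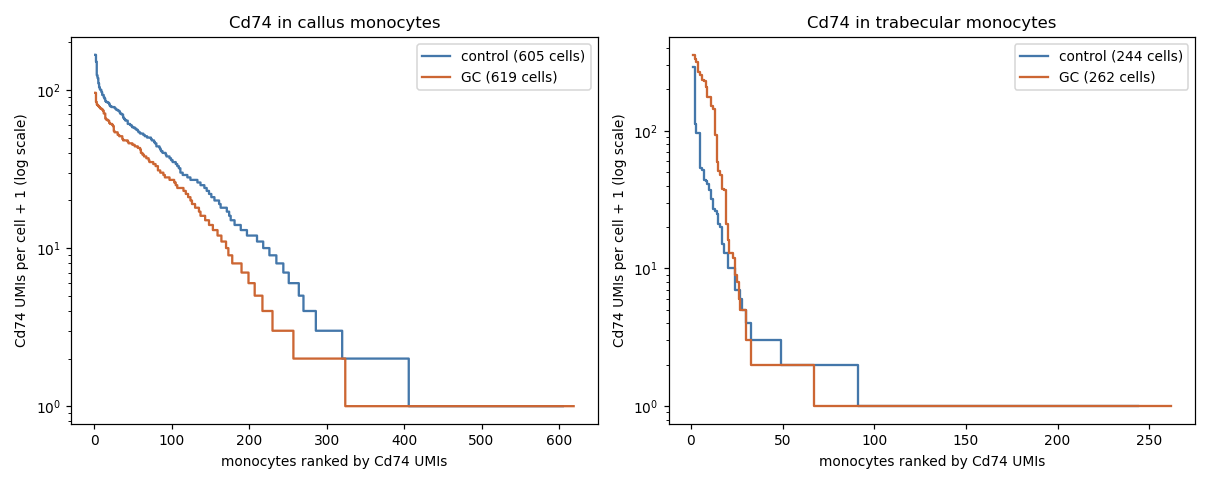
Cd74 UMIs per monocyte, in cells ranked from the richest (x axis, rank; y axis, UMIs + 1 on a log scale), control in blue and GC in orange. In trabecular bone 19 control and 23 GC cells hold at least 10 Cd74 UMIs, with the richest cells at 288 and 355 UMIs, while in callus 217 and 169 cells do.

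Trabecular B cells went from 2906 to 14953 CPM of Cd74 (5.15, 4.76 to 5.56), the largest ratio of the 46 pairs measured. The 15 GC cells all lay in cluster 19, and there the 97 control cells had 13326 CPM, a ratio of 1.12 (1.04 to 1.21). The control B cells outside that cluster have no GC counterpart. The class II genes H2-Aa (741 to 5511 CPM), H2-Eb1 (599 to 4255 CPM) and H2-Ab1 (657 to 3607 CPM) were called higher in the class as well. Trabecular mature neutrophils had 7.64 and 20.5 CPM of Cd74 (67 and 204 UMIs), called higher where 13.8% of genes were and the class median log2 ratio was 0.25. Empty droplets held 138 CPM in the control and 60.9 CPM in the GC library, both above the level in neutrophils. Free RNA was put from hemoglobins at only 2.81% of the UMIs of trabecular B and T cells in control and 1.40% in GC. With it taken off, the log2 ratio of Cd74 in these neutrophils went from 1.01 to 1.49. As the clusters of these neutrophils differ between the libraries, the part of the cluster mix in this call was not tested.

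Cd44 was highest in callus mature neutrophils, at 3240 CPM (3186 to 3296). Of those with at least 1000 UMIs, 92.2% held a Cd44 UMI after thinning to 1000 UMIs. Shallower neutrophils were left out of that share, and median depths were 1294 UMIs in control and 1173 UMIs in GC. Monocytes (1658 CPM), macrophages (1201 CPM), conventional dendritic cells (669.9 CPM) and plasmacytoid dendritic cells (553 CPM) followed in steps beyond counting error, and endothelial cells were last at 74.6 CPM. Chondrocytes, at 262 CPM, supplied 31.4% of the callus UMIs of Cd44 and mature neutrophils 23.5%. In trabecular bone monocytes led at 756 CPM, with plasmacytoid dendritic cells (649 CPM) and mature neutrophils (645 CPM) next and erythroid cells last at 29.9 CPM.

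Cd44 was the one gene of the set whose callus intervals lay above 1 in several classes and below 1 in none of the 15 measured. Over all callus pairs 17.3% of intervals lay above 1 and 19.3% below. Cd44 was above 1 in 7: macrophages, from 1004 to 1444 CPM (1.44, 1.29 to 1.60), hypertrophic chondrocytes, from 169 to 246 CPM (1.46, 1.38 to 1.54), osteoblasts, from 195 to 269 CPM (1.38, 1.16 to 1.64), osteoclasts, from 459.7 to 626 CPM (1.36, 1.25 to 1.480), stromal cells, from 332 to 432 CPM (1.303, 1.20 to 1.41), chondrocytes, from 244 to 302 CPM (1.24, 1.20 to 1.28), and mature neutrophils, from 2997 to 3562 CPM (1.19, 1.15 to 1.23). None reached 1.5-fold. In neutrophils the ratio was 1.20 (1.07 to 1.34) within cluster 0, which holds 68 GC cells, and 1.20 (1.11 to 1.295) within cluster 1. In chondrocytes it did not hold within clusters, which ran from 0.831 to 1.10. Ratios within stromal and hypertrophic chondrocyte clusters are not given here. The stromal log2 ratio, 0.38 in the main run, was -0.18 with at least 500 genes per cell, and 15 of 17 settings kept its sign. Monocytes (1683 and 1630 CPM) and T cells (233 and 211 CPM) had intervals that hold 1. In trabecular bone 6 of 8 intervals lay below 1 and 0 above (20.3% and 16.9% over all pairs), with monocytes at 806 and 712 CPM (0.883, 0.837 to 0.933), mature neutrophils at 687 and 608 CPM (0.884, 0.853 to 0.916) and T cells at 289.8 and 153 CPM (0.527, 0.410 to 0.680), the last called lower. Within trabecular neutrophil clusters 2 and 3 the Cd44 ratio was 0.745 (0.614 to 0.896) and 0.860 (0.748 to 0.984).

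CD74 signals through CD44, so cells holding UMIs of both were counted after thinning to 1000 UMIs, with shallower cells left out. In callus the share was 45.6% (37.0 to 54.3) of conventional dendritic cells, 44.2% (36.6 to 51.9) of macrophages, 35.1% (32.4 to 37.9) of monocytes, 21.2% (12.1 to 33.0) of plasmacytoid dendritic cells, 10.3% (lower bound 6.74) of osteoclasts, 9.81% (7.98 to 11.9) of B cells and 3.05% (2.40 to 3.83) of mature neutrophils. Classes that should lack one of the genes set the background: a Cd74 UMI was found in 2.26% of T cells and 1.19% of chondrocytes, and a Cd44 UMI in 6.56% of endothelial cells. Both were found in 0.603% (0.165 to 1.54) of T cells and 0.270% (0.109 to 0.555) of chondrocytes. As 3.35% of mature neutrophils (median depths 1294 and 1173 UMIs before thinning) held a Cd74 UMI, close to the share in T cells (2721 and 3053 UMIs), their share with both is read as background. B cells were mostly Cd74 without Cd44 (87.7%) and neutrophils Cd44 without Cd74 (89.1%). The product of the 2 single shares was 45.6%, 41.7%, 35.3%, 21.1%, 7.11%, 9.78% and 3.09% in the same order, each inside the interval of the observed share. In trabecular bone the share was 4.16% (2.59 to 6.29) of monocytes and 5.61% (3.36 to 8.72) of B cells, and plasmacytoid dendritic cells, 37 cells, had 21.6%. After thinning no Cd74 UMI was found in trabecular T cells (upper bound 1.71%), which held 16 before thinning.

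**Figure D5:**
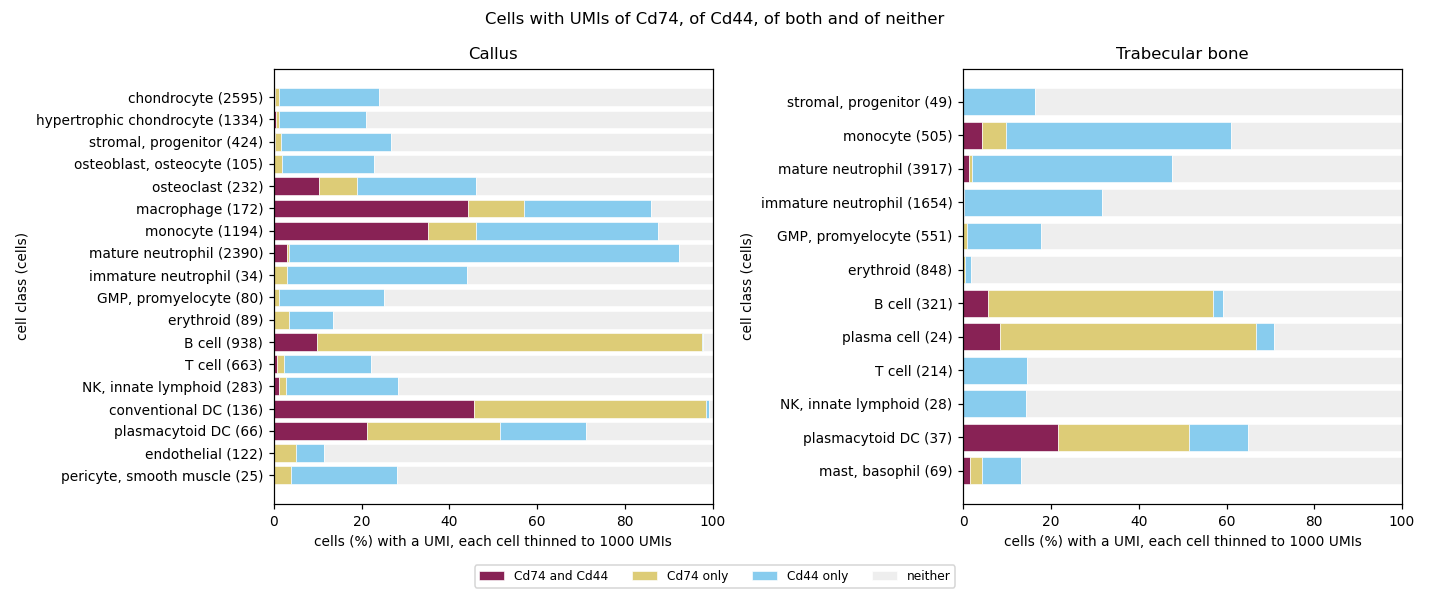
Cells with a UMI of Cd74, Cd44, both or neither, in % of the cells of each class (both libraries together, each cell thinned to 1000 UMIs, shallower cells left out, number of cells in brackets). Conventional dendritic cells, macrophages and monocytes of the callus have the largest shares with both, at 45.6%, 44.2% and 35.1%, B cells are mostly Cd74 only and mature neutrophils mostly Cd44 only.

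The same class could be set side by side in the 2 tissues, which were separate preparations whose libraries cannot be told apart from the tissue. In control monocytes Cd74 had 3575 CPM in callus and 362 CPM in trabecular bone (9.88 times, 9.30 to 10.5), App 691 and 299 CPM (2.31, 2.14 to 2.50) and Cd44 1683 and 806 CPM (2.09, 1.99 to 2.19). Mif was level in them, at 151 and 149 CPM (1.01, 0.886 to 1.16). In GC monocytes Cd74 had 2698 and 893 CPM (3.02, 2.895 to 3.15), while Mif had 82.3 and 177 CPM (0.466, 0.394 to 0.548), so that it was not level there. In control mature neutrophils Cd44 had 2997 and 687 CPM (4.36, 4.21 to 4.51) and Aplp2 129 and 24.5 CPM (5.26, 4.403 to 6.30), while App had 254 and 224 CPM (1.13, 1.03 to 1.24). In GC mature neutrophils the ratios were 5.86 (5.66 to 6.07) for Cd44, 2.95 (2.46 to 3.51) for Aplp2 and 1.38 (1.25 to 1.51) for App. Mif went the other way in control B cells, with 167 CPM in callus and 529 CPM in trabecular bone (0.315, 0.270 to 0.366). In GC B cells the interval of 0.315 to 1.43 holds 1. All 15 trabecular GC B cells lay in cluster 19, where the control cells, too, had less Mif than their class, as given above.

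The partner genes of each route were taken as 4 lists. The list of Mif and Cd74 partners (16 genes, among them chemokine receptors, proteases, class II genes and their regulators) had 1 pair higher and 30 lower of 121 measured in callus (0.826% and 24.8%, beside 5.72% and 7.78% over all genes), with a median log2 ratio of -0.16. In trabecular bone it had 9 higher and 5 lower of 64 (14.1% and 7.81%, beside 5.26% and 14.1%), and 6 of the 9 lay in B cells. Cxcr4, the chemokine receptor that MIF can also engage, went from 1200.3 to 782 CPM in callus mature neutrophils (0.652, 0.611 to 0.695) and from 404 to 468 CPM in callus T cells (1.16, 1.02 to 1.32). Cxcr2 went from 279 to 209.7 CPM in those neutrophils (0.752, 0.660 to 0.855). Ackr3, a scavenging receptor, had 345 and 336 CPM in chondrocytes. In trabecular T cells Cxcr4 was called lower, at 823 and 459 CPM (0.558, 0.482 to 0.647).

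The list of Cd44 ligands and cytoskeleton partners had 12 higher and 27 lower of 138 in callus (8.70% and 19.6%, beside 5.72% and 7.78%), and 4 and 12 of 62 in trabecular bone (6.45% and 19.4%, beside 5.26% and 14.1%). Fn1, fibronectin, went from 5626 to 8547 CPM in chondrocytes (1.52, 1.51 to 1.53), and Spp1, osteopontin, from 1628 to 3471 CPM in macrophages (2.13, 1.97 to 2.304), both called higher where 1.64% of chondrocyte genes and 11.4% of macrophage genes were. Chondrocytes of the libraries differed in make-up, with cluster 6 the largest in control (711 control and 146 GC cells) and cluster 10 in GC (221 and 360), and Fn1 was not compared within clusters. Spp1 went from 20974 to 16105 CPM in hypertrophic chondrocytes (0.768, 0.763 to 0.772). Srgn, the proteoglycan serglycin, went from 13718 to 9038 CPM in mature neutrophils (0.659, 0.646 to 0.671), where the part of the cluster mix was not tested for Srgn or Cxcr4. The App list of secretases and partners was at background, with 9 higher and 12 lower of 168 in callus (5.36% and 7.14%) and 6 and 13 of 93 in trabecular bone (6.45% and 13.98%). In callus monocytes Adam17, an alpha secretase, went from 102 to 165 CPM (1.61, 1.37 to 1.89), and Apoe, a lipid carrier, from 1405 to 1167 CPM (0.831, 0.790 to 0.874). The COPI list had 1 higher and 19 lower of 186 in callus (0.538% and 10.2%) and 2 and 16 of 103 in trabecular bone (1.94% and 15.53%), lower shares close to the background of 7.78% and 14.1%, with medians of -0.07 and 0.05.

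Across 48 points, each a class in 1 library, the gene pattern most like each member was sought among 8057 genes by Pearson r of log2(CPM + 5). The points share libraries and free RNA, and r is a description. Cd74 was matched by H2-Aa (0.98), H2-Eb1 (0.98) and H2-Ab1 (0.94), the class II genes it chaperones. Copa was matched by Yipf5 (0.91), Copb1 (0.91), its own partner in the coat, and Sec31a (0.90), a protein of the COPII coat. Mif was nearest to Pebp1 (0.90), Zfp593 (0.85) and Slc25a4 (0.85), and Ddt to Fdx2 (0.87), Acat1 (0.86) and Mrpl23 (0.86), with 0.77 between the paralogs. App was nearest to Ubtd1 (0.89), Ralb (0.88) and Tmem43 (0.85), Aplp2 to Pea15a (0.84), Tulp4 (0.84) and Camsap2 (0.82), with 0.31 between that pair. Cd44 was nearest to Efhd2 (0.90), Rnf149 (0.88) and Card19 (0.87). Between Mif and its receptor Cd74 r was 0.01, and between App and Cd74 0.03.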

How the data were processed

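Single-cell RNA was measured in 4 libraries, 1 per group. The authors deposited UMI counts per gene and barcode in matrices, and per the labels the processing named Cell Ranger 5.0.1, Seurat 3.2.0 and build mm10. The header of the GC callus matrix names an older Cell Ranger, and that matrix holds 7762 barcodes of at least 500 UMIs, so it lists no empty droplets. In the other 3, cells were called against empty droplets from 500 UMIs up. All barcodes of the GC callus matrix were taken without that test, which in the control callus passed 4403 of 4573 barcodes tested. On simulated droplets of control trabecular bone it called 74.3% of 300 cells low in UMIs and 0% of 900 empty droplets. Kept cells had at least 200 genes and at most 10% mitochondrial UMIs, and predicted doublets (0.8% per 1000 cells) were removed. Total counts per library were 41239842 to 95852254 UMIs before filtering.

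Cells were clustered within each tissue (2000 variable genes, 30 components, 15 neighbours, Leiden resolution 1; scikit-learn 1.9.0, leidenalg 0.10.2, Python 3.11.15). A cluster was named from at least 3 markers at 2-fold in at least 10% of cells, and one of at least 98% from 1 library that would have been divided again stayed unnamed. That naming rule was set after the clusters were seen. Counts were summed per class, with exact Poisson, binomial and conditional ratio intervals at 95%. Shares were taken after thinning to 1000 UMIs, with shallower cells left out, and a count model was not fitted because each group has 1 library. Free RNA was estimated from collagens (callus) or hemoglobins (trabecular bone) in B and T cells, set against the empty droplets of the library. For the GC callus library, which lists none, the sum of its kept cells took their place. The members and lists were chosen with earlier results of these data known. Named genes were all 7 members, the 4 list genes with most UMIs in a class described, and the 3 genes most like each member, with at least 50 CPM in 1 or more points.

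The ratio step was tested on simulated callus monocytes (6504 genes): 88.7% of genes changed 2-fold and 100% of those changed 4-fold were called, 0.697% of unchanged genes were, and 96.1% of intervals held the true ratio. The simulated counts held counting error only, with no spread between cells, clusters or libraries. These shares therefore do not give the rate of false calls in the data, and smaller classes were not simulated.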

Additional observations from a re-analysis of the deposited data

Results flagged for a closer look

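Some genes moved one way in callus and the other way in trabecular bone, with 1 library on each side, so the difference between the tissues was not tested. On the scale of log2 with 5 CPM added, Mif in monocytes had a GC over control ratio of -0.84 in callus and 0.24 in trabecular bone, where it was -0.02 without doublet removal. Mif in T cells had -0.97 in callus and 0.63 in trabecular bone, the latter from 49 control cells.

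Cd74 in monocytes had -0.41 in callus and 1.29 in trabecular bone, where 23 GC cells held 97.8% of the Cd74 UMIs. Cd74 in B cells had -0.10 in callus and 2.36 in trabecular bone, where the 15 GC cells lay in 1 cluster. Cd44 in mature neutrophils had 0.25 in callus and -0.18 in trabecular bone, where cells of the 2 libraries lay mostly in different clusters.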

How the results depend on the processing

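With 1 library per group no replicate could be left out. No paired analysis was possible because each group has 1 library and no replicate number. In callus the 12 calls became 19 with at least 500 genes per cell (7 of them higher), 20 with at most 5% mitochondrial UMIs, 19 without doublet removal, 19 at a minimum of 20 UMIs, 6 at 200 UMIs, 5 with thinned cells and 4 at 2-fold. In trabecular bone the 13 calls became 7 with at least 500 genes, 8 (5 higher, 3 lower) with hemoglobin, mitochondrial and ribosomal genes left out of the total, 4 with thinned cells and 4 at 2-fold, and median of ratios scaling gave 6 higher and 4 lower.

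The log2 ratio of Cd74 in callus chondrocytes, -1.13, reversed to 0.49 with only barcodes over the UMI cutoff. In callus that cutoff was applied to the control library only, so GC cells of all depths stayed in. The ratio also reversed to 0.86 with at least 500 genes, 0.019 without doublet removal and 0.46 at Leiden resolution 0.5. It was 0.53 with each library clustered alone and 0.62 with cluster 2 counted as chondrocytes, an alternative added after seeing the data. Aplp2 in callus granulocyte-monocyte progenitors reversed to 0.18 without doublet removal. In trabecular erythroid cells Aplp2 reversed to 0.10 with at least 500 genes and 0.10 under median of ratios, Mif to 0.032 with at least 500 genes and Cd44 to 0.033 without doublet removal. The cause was not tested. Over 17 settings, 170 of 177 recomputed callus calls kept their direction and 158 stayed past 1.5-fold. Over 16 settings, 179 of 183 trabecular ones kept it and 155 stayed. Left out of these totals are 27 callus and 25 trabecular values of called pairs that could not be recomputed under a setting. A minimum of 20 or 200 UMIs and an added 1 or 20 CPM cannot turn a direction. In that order they gave 12, 6, 12 and 12 of the callus values that kept it, and 13, 9, 13 and 13 of the trabecular ones. Cd74 in trabecular monocytes ranged from 0.88 to 2.11.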
